A study of Homo sapiens with 16 samples.

Results

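Transcription of 9 p53 target genes was followed in LNCaP cells by PRO-seq. The genes were ZMAT3, AEN, PHLDA3, RPS27L, TRIAP1, TP53INP1, EDA2R, TRIM22 and CYFIP2. They are p53 targets taken by name, outside the usual groups of cell cycle arrest, BCL2 family, death receptor, metabolism or repair genes. The choice was made with earlier results of these data known, so the shares of genes called below are no independent test of it. All 9 were found among the 60605 gene identifiers of the count tables. PRO-seq is a nuclear run-on assay that labels the nascent RNA of engaged RNA polymerases, so it measures transcription and not the amount of mature RNA. LNCaP is an established human prostate cancer cell line, 1 line in all samples, that depends on the androgen receptor, and enzalutamide is a drug that blocks this receptor.

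The samples formed 6 groups in 2 batches, with 2 replicates a group. In batch 1, cells labelled mock were set against cells given 6 Gy of ionizing radiation (IR), and the labels name neither a vehicle nor a time for these groups. In batch 2, all cells received either DMSO vehicle or 10 µM enzalutamide for 90 min. Each arm was left unirradiated or received 6 Gy 30 min into the treatment and was collected 60 min later. Every replicate number of batch 1 had a library named t1 and a library named t2. The labels do not explain these names or say that both came from 1 sample. Their counts were summed here and taken as 1 replicate, which is an assumption. The labels do not say whether replicates were separate cultures, so p-values measure only the spread between these samples.

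The p53 protein is a transcription factor that is held at low levels by MDM2, the ubiquitin ligase it also induces. After DNA double-strand breaks the kinases ATM and CHK2 act on p53 and MDM2, p53 is stabilised, and it binds its sites, made of paired decamers called half-sites, near its target genes. The 9 genes act in diverse ways. AEN is an exonuclease that takes part in apoptosis, TP53INP1 is a stress protein of p53 signalling and autophagy, and EDA2R is a receptor of the tumour necrosis factor family. PHLDA3 is a pleckstrin homology domain protein that limits AKT signalling, and TRIAP1 is a small mitochondrial protein that counters apoptosis. ZMAT3 is a zinc finger protein that binds RNA, and RPS27L is a close relative of the ribosomal protein RPS27. TRIM22 is an antiviral, interferon-induced member of the tripartite motif family, and CYFIP2 is a subunit of the WAVE complex, which controls actin assembly.

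By RefSeq on GRCh38.p14, ZMAT3 (ENSG00000172667) spans chr3:179017223-179072513, AEN (ENSG00000181026) spans chr15:88604683-88632281 and PHLDA3 (ENSG00000174307) spans chr1:201464278-201469188. RPS27L (ENSG00000185088) spans chr15:63148249-63157477 and TRIAP1 (ENSG00000170855) spans chr12:120443964-120446384. EDA2R (ENSG00000131080) spans chrX:66595637-66639269, TRIM22 (ENSG00000132274) spans chr11:5689790-5710863 and CYFIP2 (ENSG00000055163) spans chr5:157266123-157395594. TP53INP1 (ENSG00000164938) spans 23.4 kb. The spans of the 9 genes ran from 2.4 kb for TRIAP1 and 4.9 kb for PHLDA3 to 129.5 kb for CYFIP2.

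Promoter windows, 300 bases that start 250 bases before an annotated transcription start, were used here for 6 of the 9 genes, as 9 windows. They were searched on both strands for the p53 half-site, a decamer, and for a full site of half-site pairs with at most 2 mismatches and at most 13 bases between its decamers. AEN held a full site with 2 mismatches and 0 bases between its decamers, whose first base lay at -34 from the start. The first decamer of this site was an exact half-site. RPS27L held 1 exact half-site, at -59. No window of ZMAT3, TRIAP1, EDA2R or CYFIP2 held these letters. Over all 35116 RefSeq promoter windows, 6.63% held an exact half-site and 2.93% a full site. Matches thus occur in many other promoters too, and they are given only as a description. The windows of AEN and RPS27L are shown for these matches, which stand in capitals, and that of TRIAP1, a called gene with none, is shown for contrast. The AEN window, chr15:88621090-88621389 on the plus strand, belongs to a start inside the gene's span. The other windows are chr15:63157428-63157727 and chr12:120446335-120446634, both on the minus strand. All are RefSeq sequence of GRCh38.p14, written in the direction of the gene.
AEN: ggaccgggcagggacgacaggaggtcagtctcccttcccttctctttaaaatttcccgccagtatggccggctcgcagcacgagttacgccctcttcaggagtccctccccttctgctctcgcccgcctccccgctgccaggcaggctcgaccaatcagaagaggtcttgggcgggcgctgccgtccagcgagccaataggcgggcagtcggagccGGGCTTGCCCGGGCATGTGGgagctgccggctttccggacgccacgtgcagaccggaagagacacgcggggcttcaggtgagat
RPS27L: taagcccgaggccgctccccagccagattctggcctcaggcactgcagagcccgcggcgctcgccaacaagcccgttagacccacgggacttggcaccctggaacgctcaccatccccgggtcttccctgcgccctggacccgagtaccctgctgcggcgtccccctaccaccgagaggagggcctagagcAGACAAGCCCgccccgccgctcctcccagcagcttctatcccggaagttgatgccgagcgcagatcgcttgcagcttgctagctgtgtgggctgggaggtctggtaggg
TRIAP1: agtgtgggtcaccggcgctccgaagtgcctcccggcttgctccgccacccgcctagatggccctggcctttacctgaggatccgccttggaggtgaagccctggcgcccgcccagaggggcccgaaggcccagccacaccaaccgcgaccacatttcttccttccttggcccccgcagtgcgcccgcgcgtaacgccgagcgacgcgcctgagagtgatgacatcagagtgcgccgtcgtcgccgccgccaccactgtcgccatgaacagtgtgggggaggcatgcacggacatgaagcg

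Libraries of batch 1 held 3438642 to 9363458 counts and those of batch 2 held 10494563 to 19905824. The 8 LNCaP markers summed to 2431 to 3468 CPM, the count scaled to the library's total, in every sample, and 10 markers of leukocytes, fibroblasts, endothelium and basal epithelium summed to 29.4 to 56.5 CPM, of which VWF gave up to 31.4. No marker of either list was at 0 in every sample. The summed LNCaP markers were 2637 to 2898 CPM in mock and 2431 to 2574 in irradiated cells of batch 1, and 3139 to 3468 in vehicle and 2758 to 3127 in irradiated vehicle cells of batch 2. Under enzalutamide they were 2561 to 3083 CPM without and 2516 to 2632 with IR, which overlap. The summed markers of other cells were 53.1 to 56.5 CPM in mock and 45.8 to 51.5 in irradiated cells of batch 1. In batch 2 they were 39.0 to 42.1 CPM in vehicle and 31.4 to 38.0 after IR, and 31.1 to 37.6 under enzalutamide and 29.4 to 30.5 with IR. In batch 1 and in vehicle both sums were thus lower in irradiated cells without overlap, and under enzalutamide only the markers of other cells were. Their part in the results below was not tested. CPM values are scaled by TMM factors within each batch, and the batches were counted in separate tables.

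Irradiation raised most of these genes. In batch 1, 7 of the 9 genes were called higher in irradiated than in mock cells by edgeR's quasi-likelihood test at a Benjamini-Hochberg adjusted p under 0.05, where 2.00% of the 25889 genes tested were called higher and 2.82% in either direction. EDA2R and TRIM22 did not pass. In batch 2, 6 of the 9 were called higher in irradiated vehicle cells, where 0.743% of 28651 genes were and 1.10% changed in either direction. Under enzalutamide, 6 of the 9 were again called higher, where 0.625% were and 0.918% changed in either direction. No gene of the 9 was called lower in any of these comparisons. The median log2 fold change over the 9 genes was 1.72 in batch 1, 1.19 in vehicle and 1.08 under enzalutamide, beside -0.002 for all genes tested in batch 1, -0.006 in vehicle and -0.014 under enzalutamide. With the replicate number as a block, edgeR called 8, 7 and 7 of the 9 higher, with 2332, 1315 and 951 genes called in all in place of 731, 314 and 263.

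**Figure D1:**
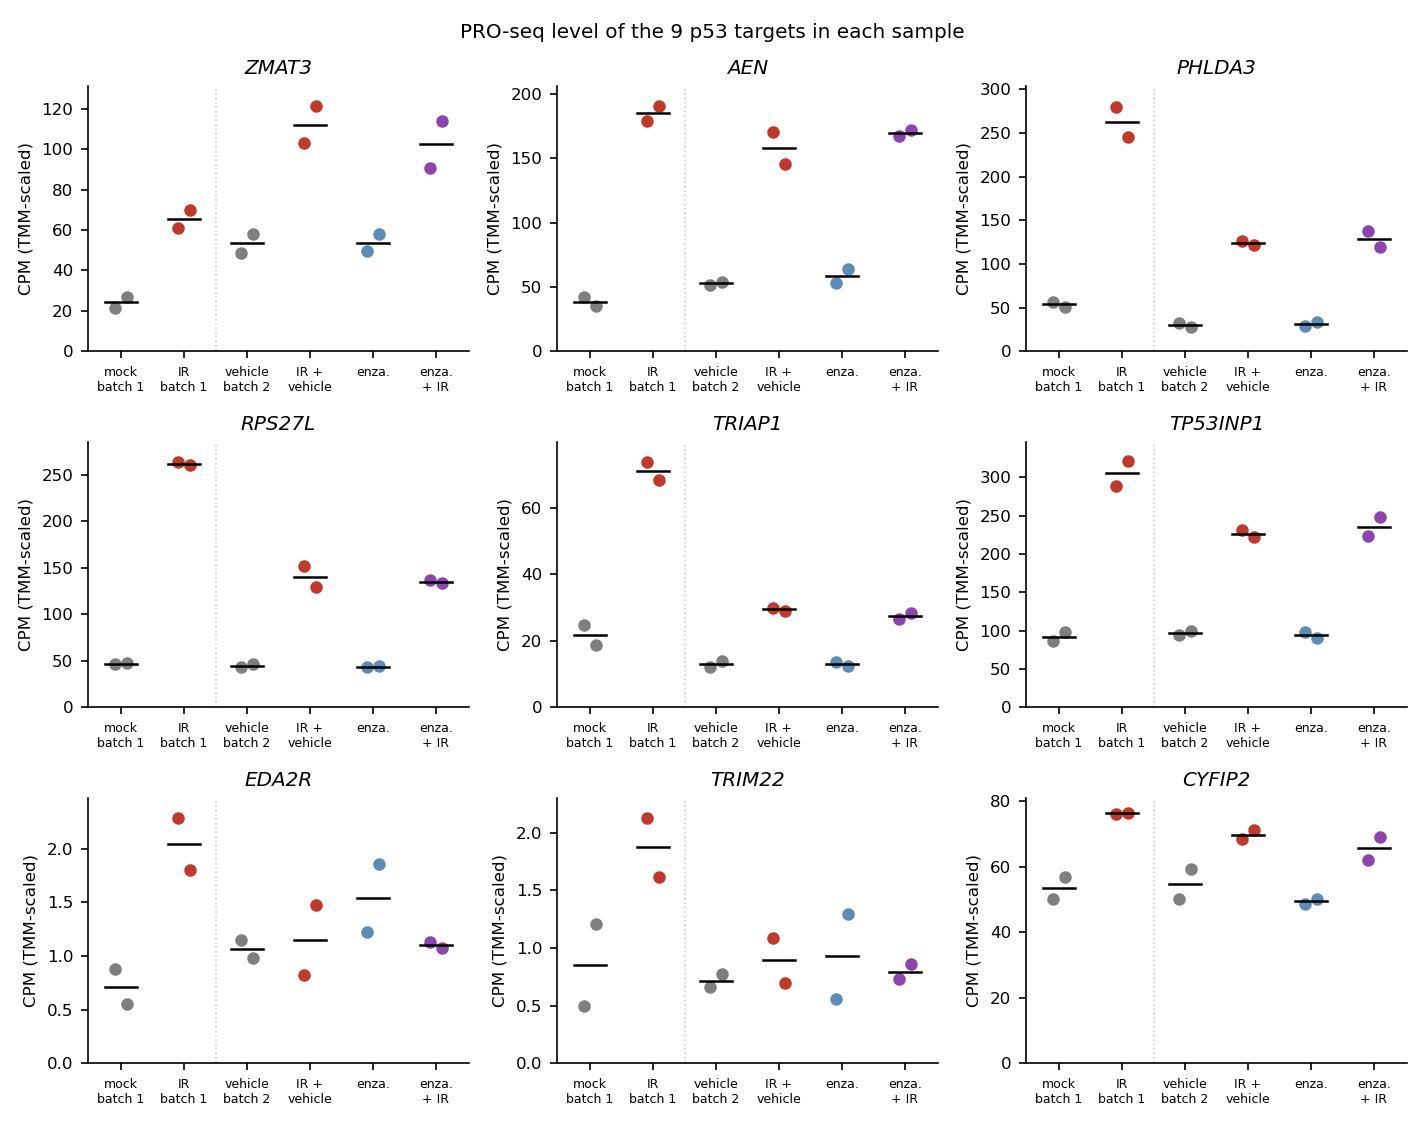
PRO-seq level (CPM, TMM-scaled within each batch, linear axis from 0) of each of the 9 genes in the 12 samples. Points are replicates, bars are means, and the dotted line separates the batches. In the 7 genes called in batch 1 both irradiated samples lie above both unirradiated ones in each batch and arm, whereas EDA2R and TRIM22 stay under 2.5 CPM.

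Among the genes tied to cell death, AEN stood at 41.9 and 35.5 CPM in the mock samples and at 179.5 and 190.7 CPM in the irradiated samples of batch 1. In batch 2 it stood at 51.4 and 54.3 CPM in vehicle, 170.3 and 145.7 CPM after IR, 53.5 and 64.2 CPM under enzalutamide, and 167.3 and 172.5 CPM under enzalutamide with IR. Irradiated and unirradiated samples did not overlap in either batch. The log2 fold change of AEN was 2.26 ± 0.13 (SE, n = 2 against 2) in batch 1 (edgeR adjusted p = 6.468e-07), 1.58 ± 0.11 in vehicle (adjusted p = 2.566e-06) and 1.54 ± 0.11 under enzalutamide (adjusted p = 3.896e-06). These correspond to 4.79-fold, 2.99-fold and 2.90-fold higher levels.

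TP53INP1 had the highest level of the 9 in unirradiated batch 2 cells on the CPM scale, which takes no account of length, with 94.3 and 99.6 CPM in vehicle. It reached 231.3 and 221.5 CPM after IR, stood at 98.1 and 90.8 CPM under enzalutamide alone, and reached 222.8 and 248.4 CPM under enzalutamide with IR. In batch 1 it stood at 85.9 and 98.0 CPM in mock and at 289.1 and 320.9 CPM in irradiated cells. Each irradiated sample was thus higher than any unirradiated one. For TP53INP1 the log2 fold changes were 1.73 ± 0.14 in batch 1 (SE, n = 2 against 2, edgeR adjusted p = 9.102e-06), 1.22 ± 0.09 in vehicle (adjusted p = 5.469e-06) and 1.32 ± 0.09 under enzalutamide (adjusted p = 3.617e-06).

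EDA2R, in contrast, was scarcely transcribed. It had 7 and 5 counts in mock and 29 and 30 in irradiated cells of batch 1, or 0.875 and 0.549 against 2.289 and 1.797 CPM. The groups did not overlap, and the log2 fold change of 1.51 ± 0.41 (SE, n = 2 against 2) missed the threshold (edgeR adjusted p = 0.08999). With the replicate block it passed, at 1.52 and an adjusted p of 0.01436. In batch 2, EDA2R had 19 and 19 counts in vehicle, 12 and 19 after IR, 24 and 20 under enzalutamide, and 14 and 15 under enzalutamide with IR. The log2 fold change there was 0.10 (95% interval -0.74 to 0.94) in vehicle and -0.42 (-1.25 to 0.42) under enzalutamide. At this depth fold changes from 0.597 to 1.92 in vehicle could not be told apart.

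PHLDA3 showed the largest fold changes of the 9 in batch 2. The gene stood at 32.9 and 28.4 CPM in vehicle, 126.5 and 122.2 CPM after IR, 29.1 and 33.1 CPM under enzalutamide, and 137.6 and 119.7 CPM under both. In batch 1 it rose from 56.6 and 51.0 CPM to 279.7 and 246.1 CPM. The unirradiated level was therefore higher in batch 1 than in batch 2, while the fold change was of a like size. PHLDA3 changed on the log2 scale by 2.29 ± 0.13 in batch 1 (SE, n = 2 against 2, edgeR adjusted p = 9.082e-07), 2.02 ± 0.11 in vehicle (adjusted p = 2.997e-07) and 2.05 ± 0.11 under enzalutamide (adjusted p = 6.477e-07).

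TRIAP1, the shortest of the 9 genes, stood at 24.6 and 18.8 CPM in mock and 73.6 and 68.5 CPM in irradiated cells of batch 1. In batch 2 its values were 12.1 and 13.8 CPM in vehicle, 30.0 and 29.1 CPM after IR, 13.5 and 12.4 CPM under enzalutamide, and 26.6 and 28.3 CPM under both. No irradiated sample fell within the range of the unirradiated samples of its batch. TRIAP1 changed on the log2 scale by 1.72 ± 0.13 (SE, n = 2 against 2, edgeR adjusted p = 7.612e-06), 1.19 ± 0.12 (adjusted p = 0.0001431) and 1.08 ± 0.13 (adjusted p = 0.0004561) in batch 1, vehicle and enzalutamide.

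Of the genes that act on RNA or in the ribosome, RPS27L had the largest fold change of the 9 in batch 1 with t1 and t2 summed. PHLDA3 was larger in t1 alone (a log2 fold change of 2.76 against 2.60), and AEN in t2 alone (2.49 against 2.43). With the libraries summed, RPS27L rose from 46.3 and 47.9 CPM in mock to 263.4 and 260.8 CPM in irradiated cells. This was a log2 fold change of 2.48 ± 0.13 (SE, n = 2 against 2, edgeR adjusted p = 3.611e-07) or 5.57-fold. In batch 2, RPS27L stood at 43.4 and 46.1 CPM in vehicle and 151.6 and 129.6 CPM after IR, and at 43.1 and 44.4 CPM under enzalutamide and 137.0 and 133.4 CPM under both. The 6 unirradiated samples thus lay close together across batches, and the irradiated samples of batch 1 lay above those of batch 2. The log2 fold changes in batch 2 were 1.65 ± 0.10 in vehicle (edgeR adjusted p = 5.497e-07) and 1.63 ± 0.10 under enzalutamide (adjusted p = 9.49e-07).

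ZMAT3 rose from 21.6 and 27.0 CPM in mock to 61.0 and 70.1 CPM in irradiated cells of batch 1. Its level was higher in batch 2, at 48.7 and 58.0 CPM in vehicle and 102.9 and 121.2 CPM after IR, and at 49.5 and 58.0 CPM under enzalutamide and 90.7 and 114.0 CPM under both. Within each batch the irradiated and unirradiated samples of ZMAT3 did not overlap. ZMAT3 changed on the log2 scale by 1.43 ± 0.13 in batch 1 (SE, n = 2 against 2, edgeR adjusted p = 3.122e-05), 1.07 ± 0.13 in vehicle (adjusted p = 0.0006492) and 0.94 ± 0.13 under enzalutamide (adjusted p = 0.002498).

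CYFIP2 changed least among the genes that passed. It stood at 50.01 and 56.76 CPM in mock and 76.2 and 76.5 CPM in irradiated cells of batch 1, a 1.43-fold rise with a log2 fold change of 0.51 ± 0.11 (SE, n = 2 against 2, edgeR adjusted p = 0.01883). This call was lost in the t1 libraries alone, where the log2 fold change was 0.15 (adjusted p = 0.5141), and also without irradiated replicate 1 (0.52, adjusted p = 0.05855) or irradiated replicate 2 (0.51, adjusted p = 0.1078). In batch 2 its values were 50.05 and 59.24 CPM in vehicle, 68.4 and 71.1 CPM after IR, 48.7 and 50.2 CPM under enzalutamide, and 62.1 and 69.2 CPM under both. The irradiated samples again lay above the unirradiated ones. The log2 fold changes of 0.35 ± 0.10 in vehicle (adjusted p = 0.176) and 0.41 ± 0.10 under enzalutamide (adjusted p = 0.1217) missed the threshold over all genes, and passed it with the replicate block at 0.36 (adjusted p = 0.005221) and 0.40 (adjusted p = 0.002283).

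TRIM22 was as scarce as EDA2R. It had 4 and 11 counts in mock and 27 and 27 in irradiated cells of batch 1, or 0.50 and 1.21 against 2.13 and 1.62 CPM, with a log2 fold change of 1.07 ± 0.43 (SE, n = 2 against 2, edgeR adjusted p = 0.3352). In batch 2, TRIM22 had 9 to 16 counts in each of the 8 samples. The log2 fold change there was 0.32 (95% interval -0.67 to 1.32) in vehicle and -0.09 (-1.13 to 0.96) under enzalutamide. The groups overlapped in both arms.

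**Figure D2:**
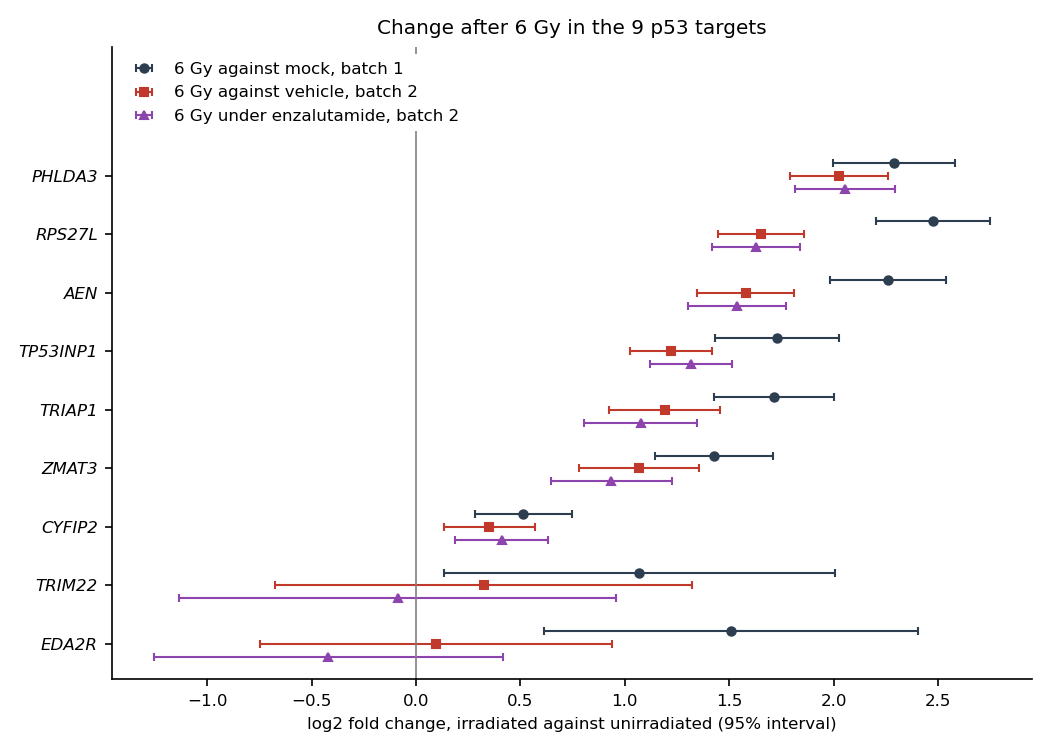
Log2 fold change after 6 Gy with its 95% interval (edgeR) for each gene, in batch 1 (circles), in vehicle cells of batch 2 (squares) and under enzalutamide (triangles). Genes are ordered by the value in vehicle, from 2.02 for PHLDA3 to 0.10 for EDA2R, and the intervals of EDA2R and TRIM22 are the widest.

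Per kilobase of gene span, the order of levels was not the order of CPM. In irradiated vehicle cells of batch 2, PHLDA3 led with 25.3 ± 0.62 CPM per kb (SD, n = 2), followed by RPS27L with 15.2 ± 1.7, TRIAP1 with 12.2 ± 0.26, TP53INP1 with 9.67 ± 0.30 and AEN with 5.73 ± 0.63. ZMAT3 followed with 2.03 ± 0.23 and CYFIP2 with 0.539 ± 0.015, and TRIM22 and EDA2R came last with 0.0425 ± 0.013 and 0.0263 ± 0.011. The ranges of TRIM22 and EDA2R overlapped, and no other neighbours in this order did. In vehicle cells without IR the order was PHLDA3 (6.24 ± 0.65), TRIAP1 (5.34 ± 0.51), RPS27L (4.85 ± 0.20), TP53INP1 (4.14 ± 0.16), AEN (1.92 ± 0.073), ZMAT3 (0.965 ± 0.12), CYFIP2 (0.422 ± 0.050), TRIM22 (0.0340 ± 0.0037) and EDA2R (0.0243 ± 0.0027), all in CPM per kb. The ranges of TRIAP1 and RPS27L overlapped there. The region over which reads were counted is not given in the sources used here, so the span is an approximation.

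Enzalutamide was not found to change these genes. Averaged over irradiated and unirradiated cells, edgeR called 0 of the 9 (where 0.0628% of genes were called), 0 had an unadjusted p under 0.05, and DESeq2 called 0 too. The log2 fold changes ran from -0.12 for CYFIP2 to 0.25 for EDA2R, with a median of 0.01. AEN came to 0.12 (95% interval -0.02 to 0.27), PHLDA3 to 0.03 (-0.11 to 0.18), RPS27L to -0.05 (-0.18 to 0.08) and TP53INP1 to 0.01 (-0.11 to 0.14). TRIAP1 came to -0.05 (-0.23 to 0.12) and ZMAT3 to -0.07 (-0.26 to 0.13). The intervals of EDA2R (-0.33 to 0.82) and TRIM22 (-0.66 to 0.72) were wider. In the same comparison 3 of the 8 LNCaP markers, which include androgen receptor targets, fell, and their median log2 fold change was -0.45. Taken within unirradiated or within irradiated cells, the values of the 9 genes lay between -0.15 and 0.48 and between -0.18 and 0.10. In either, edgeR and DESeq2 called 0 of the 9 (0.0105% of genes called by edgeR), and 0 had an unadjusted p under 0.05.

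The IR response with enzalutamide was also compared with that without it, by the interaction term. edgeR called 0 of the 9 and 0 of all genes tested (0% called), DESeq2 called 0 of the 9, and 0 of the 9 had an unadjusted p under 0.05. The difference of the log2 fold changes was -0.13 (95% interval -0.54 to 0.27) for ZMAT3, -0.04 (-0.37 to 0.28) for AEN, 0.03 (-0.30 to 0.36) for PHLDA3 and -0.02 (-0.31 to 0.27) for RPS27L. It was -0.11 (-0.49 to 0.26) for TRIAP1, 0.09 (-0.18 to 0.37) for TP53INP1 and 0.06 (-0.25 to 0.37) for CYFIP2. The ranges for EDA2R (-1.70 to 0.67) and TRIM22 (-1.85 to 1.03) leave room for large differences. A p that misses the threshold does not show that the responses were alike, and the intervals give the sizes these 8 libraries could not tell apart.

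**Figure D3:**
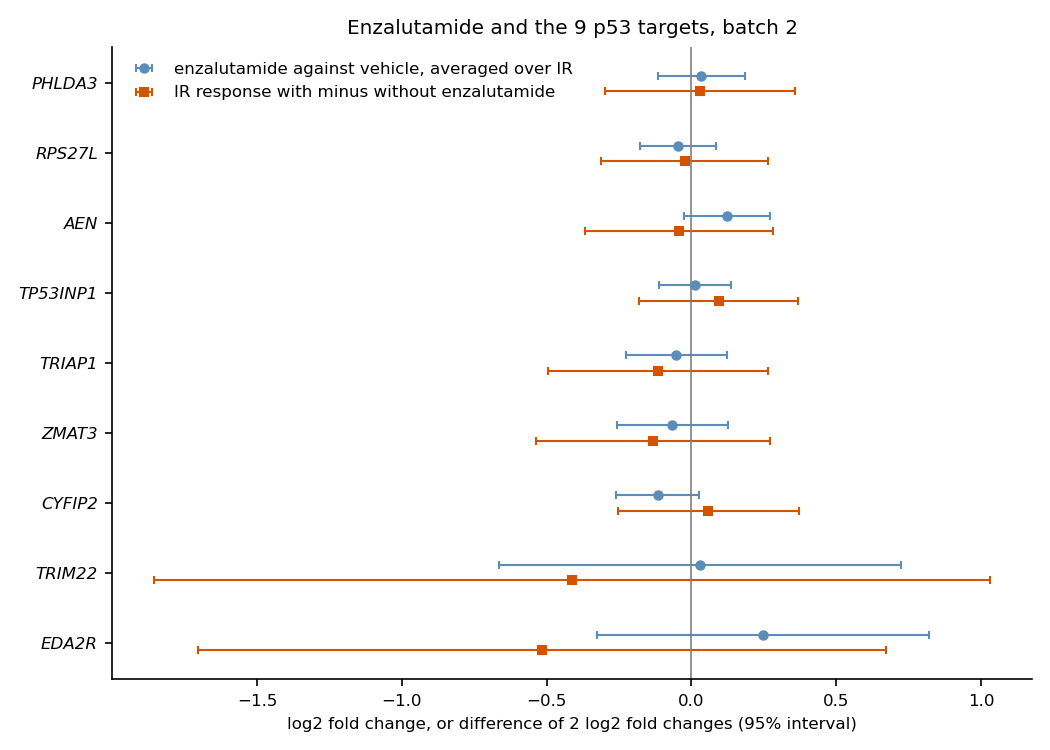
Effect of enzalutamide against vehicle averaged over IR (circles), and IR response with minus without enzalutamide (squares), as log2 values with 95% intervals (edgeR) for the 9 genes. Every interval includes 0, and those of EDA2R and TRIM22 are the widest.

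The IR response was larger in batch 1 than in vehicle cells of batch 2 for each of the 9 genes, by a median of 0.50 on the log2 scale beside -0.01 over all 29195 genes tested. It was also larger in batch 1 for 29 of 35 other listed p53 targets, with a median difference of 0.27 over the 35. A larger response in batch 1 was thus not particular to the 9 genes. The test of the batch difference called 0 of the 9 by edgeR (0.106% of genes called) and 0 by DESeq2, and edgeR called 1 of the 35. The unadjusted edgeR p was under 0.05 for 5 of the 9, for 15 of the 35 and for 1651 of all 29195 genes tested. RPS27L differed most among the well-counted genes, by 0.80 ± 0.15 (SE, edgeR adjusted p = 0.05395), and AEN by 0.66 ± 0.16 (adjusted p = 0.2853). TRIAP1 differed by 0.50 ± 0.18 (adjusted p = 0.7484) and TP53INP1 by 0.48 ± 0.16 (adjusted p = 0.6799). With a block for the replicate within its batch, 3 of the 9 were called, RPS27L at 0.81 (adjusted p = 0.003439), AEN at 0.67 (adjusted p = 0.03573) and TP53INP1 at 0.48 (adjusted p = 0.04784), among 96 genes in place of 31. Batch, vehicle and the t libraries differ together here, and the time after IR, 60 min in batch 2, is not labelled in batch 1. These cannot be told apart.

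This batch difference was not the same in the t1 and t2 libraries. In these fits edgeR called 2 of the 9 with t1 alone, where 1.66% of genes were called, and 5 of the 9 with t2 alone, where 20.3% were. With the t1 libraries alone, TRIAP1 differed between batches by 1.28 (edgeR adjusted p = 0.00427), and with the t2 libraries alone by -0.18 (adjusted p = 0.5206). PHLDA3 went the same way, with 0.71 for t1 and -0.25 for t2. TP53INP1 went the other way, with 0.02 for t1 (adjusted p = 0.9669) and 1.02 for t2 (adjusted p = 0.0002582), and so did ZMAT3 with -0.04 and 0.75, CYFIP2 with -0.24 and 0.60 and AEN with 0.47 and 0.91. TRIAP1 and PHLDA3 have the shortest spans of the 9, and the 4 others span 23.4 kb or more. RPS27L, of 9.2 kb, gave 0.91 (adjusted p = 0.0288) and 0.78 (adjusted p = 0.002442) and was called in both. The IR response within batch 1 stayed called in both kinds of library for ZMAT3, AEN, PHLDA3, RPS27L, TRIAP1 and TP53INP1, with the log2 fold change of TRIAP1 at 2.50 for t1 and 1.00 for t2 and that of TP53INP1 at 1.28 and 2.24. There 17.3% of genes were called with t1 alone and 44.7% with t2 alone, beside 2.82% with the libraries summed.

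The same order was present over all genes. Among genes with a symbol and a RefSeq span (99.2% and 99.3% of those tested with a symbol), the median IR log2 fold change of batch 1 in the t1 libraries was 0.32 for 2532 genes under 5 kb, 0.20 for genes of 5 to 20 kb, 0.00 for those of 20 to 60 kb and -0.16 for 5919 genes over 60 kb. In the t2 libraries the medians were -0.57, -0.23, 0.05 and 0.23. With t1 and t2 summed they lay between -0.06 and 0.01. TRIAP1, PHLDA3 and RPS27L, under 20 kb, thus had their higher value in t1, as the medians of their span classes did. AEN, TP53INP1, ZMAT3 and CYFIP2 had theirs in t2, as the medians of their classes did. The sizes differed. From t1 to t2, AEN went from 2.08 to 2.49, TP53INP1 from 1.28 to 2.24 and ZMAT3 from 1.06 to 1.82. The median of their class went only from 0.00 to 0.05. RPS27L moved less than its class, from 2.60 to 2.43 beside 0.20 to -0.23. The share of these shifts in the members' values was not tested.

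**Figure D4:**
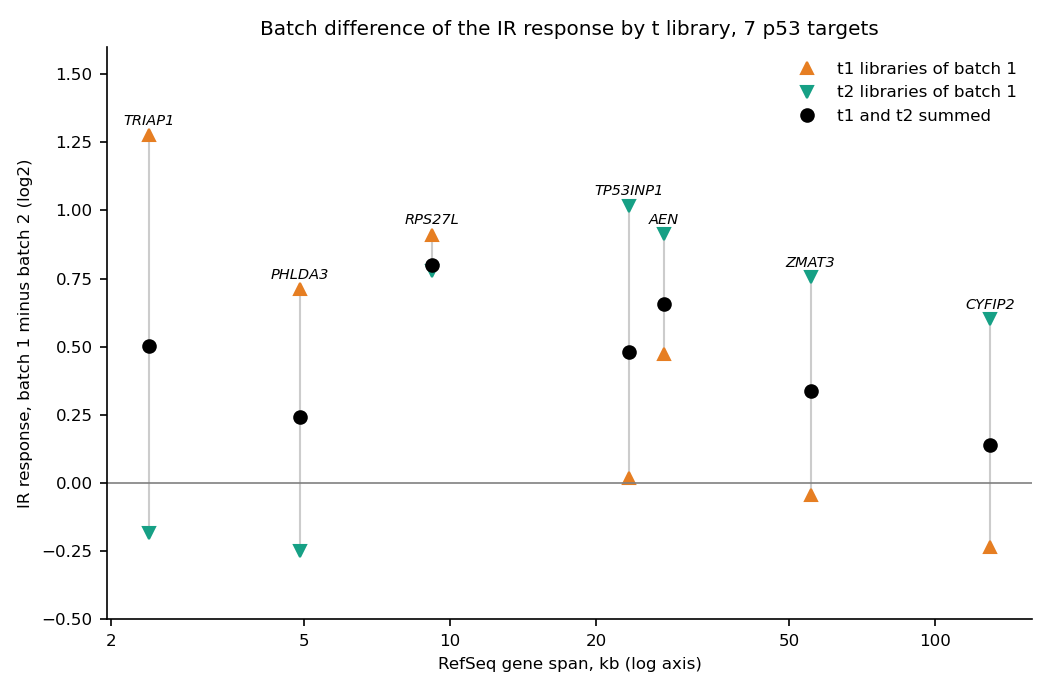
IR response in batch 1 minus that in vehicle cells of batch 2 (log2) against RefSeq gene span (kb, log axis), with batch 1 taken from its t1 libraries (upward triangles), its t2 libraries (downward triangles) or their sum (circles), for 7 genes; EDA2R and TRIM22 are left out for their low counts. TRIAP1 and PHLDA3 have the higher value in t1, and ZMAT3, AEN, TP53INP1 and CYFIP2 in t2.

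Genes next to the members, and their relatives, were read from the same fits, since the sources used here do not state whether reads were assigned by strand. Of 25 genes with a symbol that overlap a member or lie nearest to it on either side, 14 were tested in batch 1 and 15 in batch 2. ISG20 and NDUFAF6 were the 2 called in each IR comparison, both higher. Over all genes tested, 2.82% were called in either direction in batch 1, 1.10% in vehicle and 0.918% under enzalutamide. ISG20, an interferon-induced exonuclease related to AEN, lies 3350 bp from it. ISG20 rose from 39.6 and 41.6 CPM to 79.9 and 82.8 CPM in batch 1, with log2 fold changes of 1.00 ± 0.10 there, 0.97 ± 0.11 in vehicle and 1.04 ± 0.11 under enzalutamide (edgeR adjusted p = 8.939e-05, 0.0003878 and 0.0002646). It thus rose with its neighbour AEN, by a smaller fold.

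NDUFAF6, an assembly factor of respiratory complex I, overlaps TP53INP1 along all of its 23407 bp, so that reads of these genes cannot be told apart without strand. Its log2 fold changes were 0.98 ± 0.14 in batch 1, 0.55 ± 0.10 in vehicle and 0.57 ± 0.10 under enzalutamide (edgeR adjusted p = 0.0009967, 0.011 and 0.01041). The calls of NDUFAF6 in batch 2 were lost on leaving out either vehicle replicate (adjusted p = 0.1506 and 0.08202), irradiated vehicle replicate 3 (0.1409) or enzalutamide with IR replicate 3 (0.1525). GATC, a subunit of a mitochondrial amidotransferase, begins 59 bp from TRIAP1 and had log2 fold changes of 0.38 ± 0.11, 0.22 ± 0.09 and 0.25 ± 0.09 (adjusted p = 0.09961, 0.3736 and 0.3782). LACTB, 6187 bp from RPS27L, had 0.45 ± 0.12, 0.28 ± 0.13 and 0.33 ± 0.13 (adjusted p = 0.09805, 0.4421 and 0.4236). GATC and LACTB passed in batch 1 with the replicate block (adjusted p = 0.001413 and 0.003189), and their values there remained under those of TRIAP1 and RPS27L. GATC also passed with the t2 libraries alone, at 0.57 (adjusted p = 0.001062), and LACTB with the t1 libraries alone, at 0.63 (adjusted p = 0.02337). COX6A1, 3233 bp from TRIAP1 on the side away from GATC, was not called in any IR comparison. Its range was 5.71 to 8.38 CPM in mock and 9.31 to 10.24 in irradiated cells of batch 1. In batch 2 it was 5.15 to 5.54 CPM in vehicle and 7.45 to 8.38 after IR. Under enzalutamide it was 5.75 to 6.00 CPM without and 7.51 to 7.86 with IR. Irradiated samples of COX6A1 were thus higher without overlap in each comparison.

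Of 14 relatives of the members, 13 were tested in each IR comparison, and ISG20, counted among the neighbours too, was the 1 called. The shares called over all genes were 2.82%, 1.10% and 0.918%. RPS27, the ribosomal protein that RPS27L resembles and with which it could share reads, had log2 fold changes of 0.21 ± 0.17, 0.13 ± 0.16 and 0.29 ± 0.16 (edgeR adjusted p = 0.7239, 0.784 and 0.6087). In batch 1, RPS27 came to 1.05 in the t1 libraries (adjusted p = 0.00168) and to -0.90 in the t2 libraries (adjusted p = 7.995e-05), so that it was called in opposite directions. It also passed under enzalutamide at 0.65 without enzalutamide replicate 3 (adjusted p = 0.0338). CYFIP1, the relative of CYFIP2, had 0.14 ± 0.13, 0.16 ± 0.09 and 0.15 ± 0.09 (adjusted p = 0.7805, 0.5514 and 0.6665). It came to 0.74 in the t2 libraries of batch 1 (adjusted p = 0.0008427) and to -0.35 in t1.

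**Figure D5:**
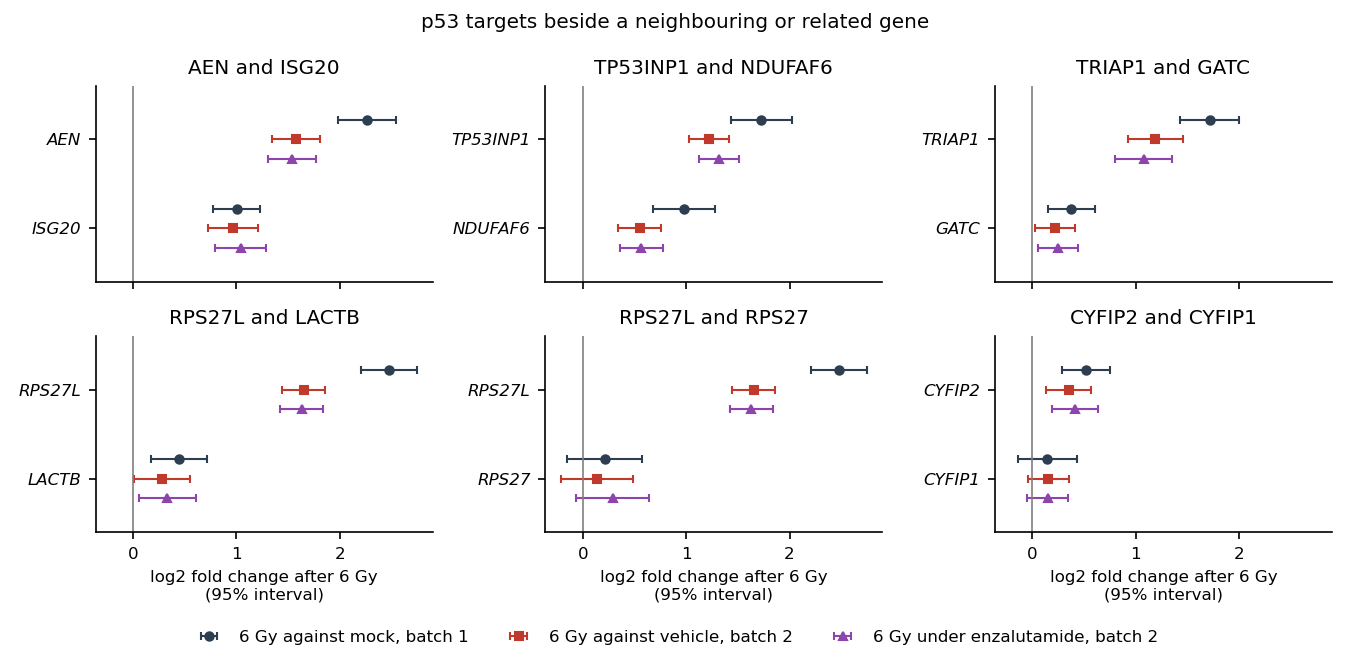
Log2 fold change after 6 Gy with its 95% interval (edgeR) for a member, upper row of each panel, and a neighbouring or related gene, lower row, in batch 1 (circles), vehicle (squares) and enzalutamide (triangles) of batch 2. ISG20 and NDUFAF6 lie above 0 in each comparison and below AEN and TP53INP1, and the values of GATC, LACTB, RPS27 and CYFIP1, from t1 and t2 summed in batch 1, are under 0.5.

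The rest of the p53 pathway gives the setting. Of 35 other listed targets, chosen with earlier results known, 27 were called higher in batch 1, 26 in vehicle and 26 under enzalutamide. None was lower, and the median log2 fold changes were 1.58, 1.26 and 1.14. Over all genes tested, 2.00%, 0.743% and 0.625% were called higher. By group, 4 of 6 arrest genes, 3 of 5 feedback genes, 8 of 9 metabolism genes and 5 of 5 repair genes were higher in each comparison, and 7, 6 and 6 of 10 BCL2 family and death receptor genes. CDKN1A, the cell cycle inhibitor p21, had log2 fold changes of 3.65 ± 0.15, 3.02 ± 0.17 and 2.88 ± 0.17, and MDM2 had 3.11 ± 0.17, 2.10 ± 0.10 and 1.98 ± 0.10. Both exceeded every one of the 9 genes in batch 1 and in vehicle, where MDM2 (2.10) was close to PHLDA3 (2.02). Under enzalutamide CDKN1A did so too, whereas PHLDA3 (2.05) lay above MDM2 (1.98). The 5 regulators ATM, CHEK2, USP7, HIPK2 and TP53BP1 had edgeR adjusted p of at least 0.8084 in batch 1, 0.6937 in vehicle and 0.8997 under enzalutamide, and median log2 fold changes of 0.00, 0.08 and 0.00. None of these 5 genes was called in any of the 3 IR comparisons.

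Likeness was taken as Pearson's r of log2(CPM + 1), centred within each batch, over the 12 samples, and is a description, since all genes share the libraries and the IR contrast. Among the 7 members called in batch 1, r ran from 0.903 to 0.993 over 21 pairs, and in the 15 pairs with EDA2R or TRIM22 from 0.350 to 0.595. Of 15937 candidate genes, those most like a member were MDM2 (r = 0.998) and PPM1D (0.997) for RPS27L, BTG2 (0.997) and FDXR (0.995) for PHLDA3, XPC (0.996) and MIR34AHG (0.995) for AEN, and MDM2 (0.996) and MIR34AHG (0.995) for TP53INP1. ANXA4 (0.994) and PRKX (0.990) came first for ZMAT3, TYMSOS (0.996) and PCNP (0.995) for TRIAP1, and PRKX (0.983) and SERINC5 (0.980) for CYFIP2. The genes nearest to EDA2R were GSN (0.924) and DLEU7 (0.912), and those nearest to TRIM22 were GINS3 (0.912) and SENP3 (0.909). MDM2, PPM1D, BTG2, FDXR and XPC are themselves listed p53 targets.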

How the data were processed

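PRO-seq was measured in 16 libraries of LNCaP cells. The authors deposited 1 table of raw counts per gene identifier for each batch, whole numbers with differing totals. Per the submitters' processing notes, reads were handled with cutadapt 1.8.1, Bowtie2 2.4.4, SAMtools 1.9 and build hg38. The counting tool, the annotation, the use of strand and any removal of duplicates are not given in the sources used here. Of 60605 identifiers, 60463 matched the table of gene names.

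Counts of t1 and t2 under a replicate number were summed, which gave 12 samples. Libraries of a group differed by more than sampling noise (chi-square per degree of freedom 3.281 to 34.75). In batch 1, t1 against t2 of a replicate gave 7.653 and 17.61 in mock and 15.01 and 34.75 in irradiated cells. Replicate 1 against 2 gave 7.141 in t1 and 3.281 in t2 for mock, and 4.372 and 4.033 for irradiated cells. Libraries of a group were thus more alike within a t number than within a replicate number. The larger total was t2 in mock replicate 1 and irradiated replicate 2, and t1 in mock replicate 2 and irradiated replicate 1. Summed replicates thus mix t1 and t2 in differing shares, whose part in the spread was not tested. Within each batch, edgeR 4.0.16 (R 4.3.3) was run with filterByExpr, TMM factors, glmQLFit and glmQLFTest, and p-values were adjusted by Benjamini-Hochberg over all genes tested, with a threshold of 0.05. The SE is the log2 fold change over the square root of F, and the 95% intervals use the model's t distribution. Batch 2 was 1 model of 8 libraries. The difference between batches was tested on mock and IR of batch 1 with vehicle and IR of batch 2. DESeq2 1.42.0 was an alternative. Steps were tested on simulated data.

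The labels share replicate numbers within a batch, which is where the pairing comes from. Replicate differences of 2 groups correlated across genes at 0.258 to 0.453 over 6 pairs of groups in batch 2, so the numbers were taken to pair the samples there, and at 0.365 in batch 1, which has 1 such pair of groups. The main model has no block.

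The 9 genes and all lists were chosen with earlier results of these data known. Named besides them, by rule, were their neighbours and relatives, CDKN1A and MDM2, and the 2 genes most like each member with a mean of at least 50 counts. The neighbours and relatives given values are those called, those nearest to TRIAP1 and RPS27L, COX6A1, RPS27 and CYFIP1. These were picked after their values were seen. 1 further gene that the rule takes in is not reported here. Promoter sequences are RefSeq's, on GRCh38.p14.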

Additional observations from a re-analysis of the deposited data

How the results depend on the processing

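With 2 replicates a group, the spread is poorly known. The low counts of EDA2R and TRIM22 limit what can be said of them, the t1 and t2 libraries of batch 1 differ, and reads may not have been assigned by strand. The number of the 9 genes called after IR was 6 to 8 in batch 1, 6 or 7 in vehicle and 6 or 7 under enzalutamide over the alternatives tried (replicate block, RLE factors, total counts, no filter, DESeq2, each sample left out and, in batch 1, t1 or t2 alone), and ZMAT3, AEN, PHLDA3, RPS27L, TRIAP1 and TP53INP1 were called higher in each of them. No enzalutamide or interaction call was made for the 9 genes in any of these. The replicate block changed no member's call beside those of EDA2R, CYFIP2 and the batch difference given above. EDA2R also passed in batch 1 with no filter (adjusted p = 0.01111), and CYFIP2 under enzalutamide (0.03044). For the batch difference, 3 of the 9 were called with the replicate block, 1 with total counts, 1 with no filter, 2 with t1 alone and 5 with t2 alone.

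Counts over all genes moved more. With the replicate block they were 2332 for IR in batch 1, 1315 in vehicle, 951 under enzalutamide, 55 for enzalutamide without IR, 55 with IR, 1 for the interaction, 272 for enzalutamide averaged and 96 for the batch difference. With no filter they were 1157, 624, 556, 74, 64, 32, 230 and 119. DESeq2 called 11, 6 and 59 genes for enzalutamide without IR, with IR and averaged, beside 3, 3 and 18. With t1 alone 3995 genes were called for IR in batch 1 and 452 for the batch difference, and with t2 alone 9800 and 5646. Leaving out 1 sample gave 587 to 1509 genes for IR in batch 1 (most without mock replicate 2), 161 to 210 in vehicle (fewest without irradiated replicate 4, 162 without vehicle replicate 3 and 209 without vehicle replicate 4), 139 to 434 under enzalutamide (fewest without irradiated replicate 4, 162 without irradiated replicate 3, most without unirradiated replicate 4), 3 to 10, 1 to 4 and 7 to 36 for enzalutamide without IR, with IR and averaged, and 0 to 4 for the interaction. A lone sample of a group is then assumed to vary like the others. The cause of these moves was not tested.

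Some values that were not called changed sign, among them the batch differences of TRIAP1 (0.50) and ZMAT3 (0.34). With t1 alone, CYFIP1 came to -0.35 after IR in batch 1, and the batch difference to -0.04 for ZMAT3 and -0.24 for CYFIP2. With t2 alone, RPS27 came to -0.90 after IR (adjusted p = 7.995e-05, a called fall), and the batch difference to -0.25 for PHLDA3 and -0.18 for TRIAP1. Leaving out 1 sample gave, after IR in batch 1, -0.00037 to 0.44 for RPS27 and -0.0078 to 0.31 for CYFIP1, and in vehicle -0.37 to 0.48 for EDA2R, -0.043 to 0.59 for TRIM22 and -0.039 to 0.29 for RPS27. Under enzalutamide TRIM22 ran from -0.69 to 0.51. The interaction ran from -0.17 to 0.089 for AEN, -0.069 to 0.18 for CYFIP2, -0.076 to 0.13 for PHLDA3, -0.12 to 0.096 for RPS27L, -1.02 to 0.18 for TRIM22 and -0.31 to 0.051 for ZMAT3. Enzalutamide averaged ran from -0.020 to 0.075 for PHLDA3, -0.10 to 0.0062 for RPS27L, -0.043 to 0.043 for TP53INP1, -0.25 to 0.25 for TRIM22 and -0.13 to 0.0067 for ZMAT3.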
